A study of Homo sapiens with 12 samples.

Results

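The genes described here are the zinc finger genes of human chromosome 19, taken as every protein-coding gene of that chromosome in the deposited table whose name is ZNF followed by a number. The rule gave 250 genes of 60715 in the table, 3 of which are read-through genes that join neighbouring loci (ZNF559-ZNF177, ZNF625-ZNF20 and ZNF816-ZNF321P). They were measured by RNA sequencing in ordinary attached culture, 1 day after detachment onto ultra-low attachment plates and 7 days after it. Human lung adenocarcinoma supplied the 4 lines: LC-2/ad, known for a RET fusion, HCC4006, known for an EGFR deletion, NCI-H2228, known for an ALK fusion, and NCI-H2009. All lines were kept in RPMI-1640 with fetal bovine serum, and detached cells had been trypsinized before plating. Each line in each state is 1 library, so the 4 lines stand as the replicates of a state, and differences between lines or within a line carry no test. Levels are TPM, transcript abundance scaled by gene length and library depth.

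A C2H2 zinc finger protein reads DNA through a row of small finger modules, joined by short linkers of conserved sequence. Many of the genes on chromosome 19 also encode a KRAB domain, which recruits the co-repressor TRIM28 (KAP1) and, through it, the histone H3K9 methyltransferase SETDB1. The genes arose largely by tandem duplication and lie in clusters, and many of their products silence transposable elements. Several of them are known for being silenced by promoter methylation in tumours.

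The totals of estimated counts were between 31134389 and 41881984 per library over the 12 libraries. The epithelial genes EPCAM, CDH1, KRT8, KRT18 and KRT19 and the lung lineage genes NKX2-1 and NAPSA were at 1 TPM or more in all 12 libraries, while the leukocyte genes PTPRC and CD3E, the fibroblast gene PDGFRB and the endothelial gene VWF stayed under 1 TPM in all of them. Of the other markers, CD68 (2.65 to 59.3 TPM) and COL1A1 (4.12 to 347 TPM, mean 179 in NCI-H2228) were above 1 TPM in all 12 libraries, LUM averaged 26.3 TPM in LC-2/ad, and SFTPB, LYZ, COL1A2, PECAM1 and CDH5 reached 1 TPM in 7, 3, 2, 3 and 1 libraries. Their part in the results was not tested. The NCI-H2009 libraries differed most from one another, with 14141 genes at 1 TPM or more in attached culture, 13464 at day 1 and 14899 at day 7, against 13516 to 14173 in the other 9 libraries.

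The finger repeats themselves are visible in the transcripts and are shown because they define the family. The linker was searched as the 15 bases in capitals below, with any base allowed at the last position of each codon, on the sense strand of the longest coding transcript of each gene in GENCODE release 29 (GRCh38). Below is 1 finger unit of 84 bases followed by the next linker from 3 genes of the short arm, with linkers in capitals.

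ZNF626 finger repeat: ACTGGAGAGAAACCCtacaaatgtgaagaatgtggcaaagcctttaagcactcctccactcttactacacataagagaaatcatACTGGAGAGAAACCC

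ZNF43 finger repeat: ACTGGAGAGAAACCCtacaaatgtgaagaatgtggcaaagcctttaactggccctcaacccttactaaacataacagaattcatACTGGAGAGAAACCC

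ZNF91 finger repeat: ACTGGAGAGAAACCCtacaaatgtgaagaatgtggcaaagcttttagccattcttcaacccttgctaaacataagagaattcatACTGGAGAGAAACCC

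Of 247 zinc finger genes with a transcript, 209 (84.6%) held the linker at least once, with a median of 6 and up to 25 copies. The share was 65.9% of 264 ZNF genes on other chromosomes, with a median of 2 copies. It was 1.88% of the 19435 protein-coding genes outside the family, a set that includes these 264. A median of 2.28% of the 50-base windows of a chromosome 19 zinc finger transcript also occurred in a transcript of another gene. The share was over 20% for 22 genes and over 50% for 9, among them ZNF320, ZNF468, ZNF709, ZNF223, ZNF98, ZNF724 and ZNF763, whose values are therefore uncertain. In the table's own coordinates 184 of the 250 genes overlap another gene, 109 of them on the same strand, and whether counting used strand is not given in the sources used here.

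Most of the family was expressed at low levels. A TPM of at least 1 was reached in 4 or more libraries by 222 genes (88.8%), and in all 12 libraries by 104 (41.6%). The same shares were 82.6% and 53.2% of the 265 ZNF genes on other chromosomes, 59.7% and 46.5% of the 1219 other protein-coding genes of chromosome 19, and 63.5% and 48.2% of all 19983 protein-coding genes. Among the expressed genes the median of the mean TPM was 3.80 in the chromosome 19 family, against 4.83 in the other ZNF genes, 25.7 in the rest of the chromosome and 18.4 in all protein-coding genes. Only 35 family members (14.0%) averaged 10 TPM or more, against 40.6% of all protein-coding genes. The 11 genes under 1 TPM in every library were ZNF844, ZNF729, ZNF98, ZNF492, ZNF99, ZNF536, ZNF575, ZNF541, ZNF534, ZNF816-ZNF321P and ZNF865.

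ZNF146, whose product consists of zinc fingers with no KRAB domain, had the highest mean level, 76.1 TPM. In attached, day 1 and day 7 cells it stood at 95.8, 6.13 and 80.1 TPM in NCI-H2009, at 65.5, 51.9 and 59.5 TPM in LC-2/ad, at 95.1, 66.2 and 147 TPM in NCI-H2228, and at 95.9, 78.4 and 71.4 TPM in HCC4006. The NCI-H2009 day 1 library was thus far below the other 11. The next in mean TPM were ZNF580 (40.9), ZNF226 (36.6), ZNF574 (36.5), ZNF524 (35.5), whose product binds telomeric DNA, ZNF576 (32.9), ZNF274 (29.3), which recruits SETDB1 to the 3′ ends of zinc finger genes, ZNF444 (29.2), ZNF581 (29.1) and ZNF766 (24.9). ZNF576 lay between 26.4 and 38.3 TPM in every library.

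Among members with known roles, ZNF91, which represses SVA retrotransposons, and ZNF93, which represses LINE-1 elements, were low in LC-2/ad. ZNF91 stood at 0.49, 0.11 and 0.49 TPM in attached, day 1 and day 7 LC-2/ad cells, against 2.61 to 19.1 TPM in the 9 libraries of the other lines. ZNF93 stood at 0.16, 0 and 0 TPM in LC-2/ad, against 1.97 to 14 TPM in the other lines. The imprinted gene ZNF331 was between 5.67 and 19.3 TPM in all libraries, and ZNF350, whose product partners BRCA1, between 2.79 and 14.1 TPM. ZNF304 was between 2.70 and 7.49 TPM, ZNF568, whose mouse counterpart represses a placental Igf2 transcript, between 0.78 and 8.77 TPM, and ZNF808, which represses MER11 elements, between 1.22 and 7.06 TPM.

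Genes known for promoter methylation in tumours differed between the lines in level. ZNF154 was at most 0.08 TPM in the 6 libraries of NCI-H2009 and HCC4006, and between 0.59 and 1.44 TPM in the 6 of LC-2/ad and NCI-H2228. ZNF177 was between 3.44 and 4.32 TPM in NCI-H2228 and at most 0.36 TPM in LC-2/ad. ZNF382 stood at 5.19, 0.18 and 6.73 TPM in attached, day 1 and day 7 NCI-H2009 cells and at no more than 0.13 TPM in LC-2/ad. ZNF671 was detected throughout, between 1.79 and 9.73 TPM. No methylation was measured here.

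**Figure D1:**
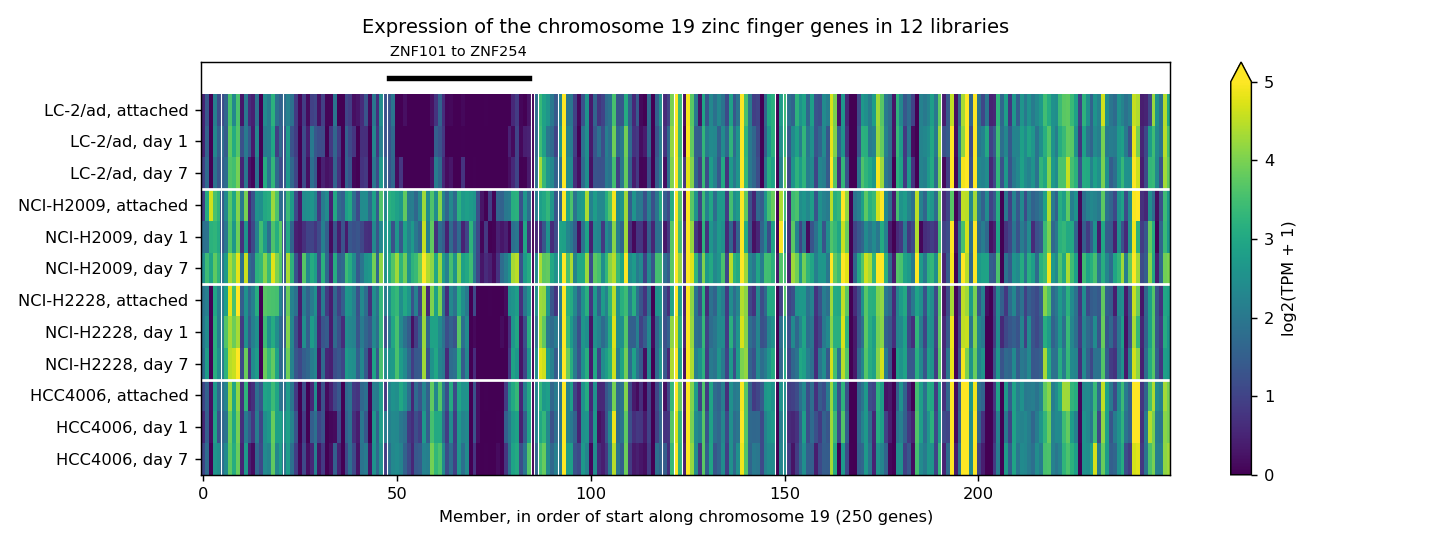
Level of the 250 genes as log2(TPM + 1), each column a gene in order of its start along the chromosome and each row a library, with states in the order attached, day 1 and day 7 within each line. White vertical lines separate the 16 positional groups, and the black bar marks the group from ZNF101 to ZNF254, which is dark in the 3 LC-2/ad rows.

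Split wherever neighbouring starts lie more than 1 Mb apart, the 250 genes fell into 16 groups along the chromosome. The largest runs from ZNF628 to ZNF446 near the long arm's end (chr19:55476617-58481230, GRCh38) and holds 59 genes, 54 of them at 1 TPM or more in 4 libraries. The others with more than 10 genes are those from ZNF557 to ZNF846 (16 genes, all 16 expressed by that measure), ZNF653 to ZNF791 (26 genes, 23 expressed), ZNF101 to ZNF254 (37 genes, 27 expressed), ZNF565 to ZNF573 (27 genes, 24 expressed), ZNF575 to ZNF296 (24 genes, 23 expressed) and ZNF175 to ZNF331 (40 genes, 37 expressed). The remaining groups run from ZNF554 to ZNF77, ZNF302 to ZNF792, ZNF546 to ZNF780A, ZNF574 to ZNF526 and ZNF541 to ZNF114, or hold a single gene (ZNF333, ZNF536, ZNF507 and ZNF473).

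The group from ZNF101 to ZNF254 lies on the short arm next to the centromere (chr19:19668796-24129968) and was nearly silent in LC-2/ad. A gene is called off in a line when all 3 of its libraries are at 0.1 TPM or less, and on when all 3 are at 1 TPM or more. In LC-2/ad 20 of the 37 genes were off and 3 were on (ZNF101, ZNF14 and ZNF714), against 0 off and 24 on in NCI-H2009, 8 off and 21 on in NCI-H2228, and 6 off and 21 on in HCC4006. Of all 19983 protein-coding genes, 5222 were off in LC-2/ad, 4808 in NCI-H2009, 4984 in NCI-H2228 and 4744 in HCC4006. Those that were on numbered 11192, 10855, 11342 and 11601 in the same order. The group was singled out as the positional group with the most genes off in 1 line, so these counts are part of its choice. The summed level of the group in attached, day 1 and day 7 cells was 9.72, 10.2 and 13.9 TPM in LC-2/ad. It was 187, 113 and 324 TPM in NCI-H2009, 151, 118 and 116 TPM in NCI-H2228, and 130, 102 and 118 TPM in HCC4006. LC-2/ad had the lowest line mean for 36 of the 37 genes, and its 3 libraries all lay below the other 9 for 24 of them. Of all protein-coding genes, 3.79% had the 3 LC-2/ad libraries below the other 9, and the share with the lowest line mean in LC-2/ad was not counted. The sums, means and ranks come from the same libraries as the choice of the group. They describe its size there and are no separate support.

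**Figure D2:**
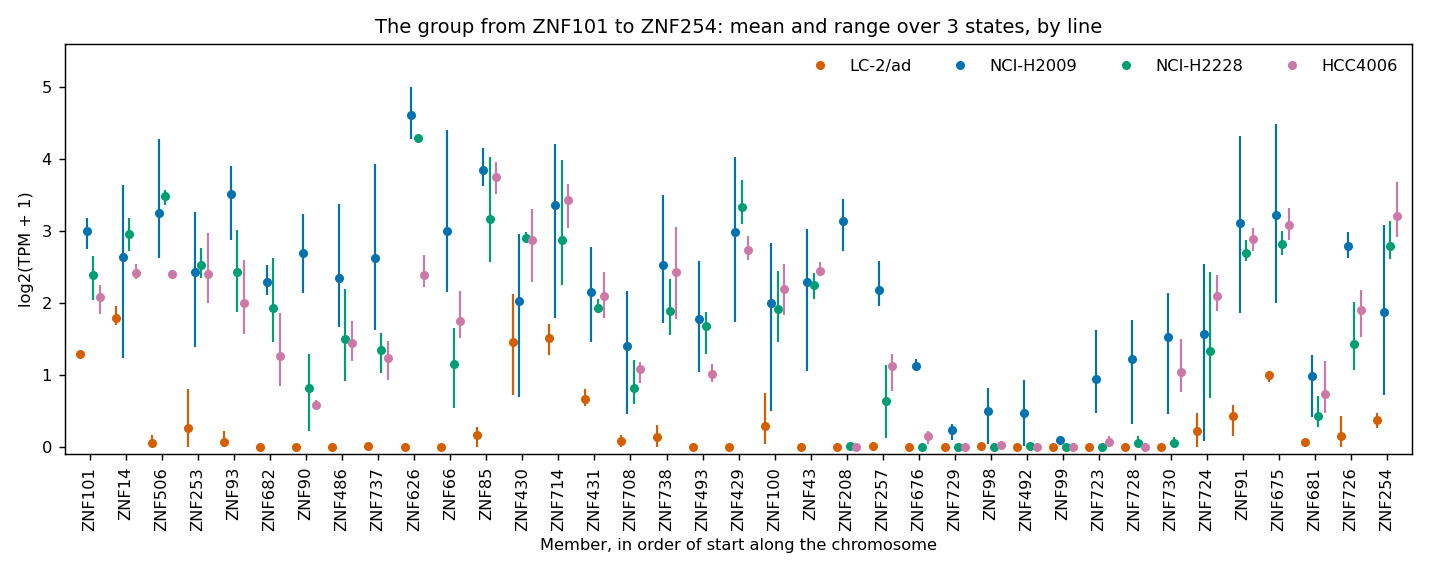
Level of each of the 37 genes from ZNF101 to ZNF254 as log2(TPM + 1), in order along the chromosome. Points are the mean over the 3 states of a line on this scale and bars the range over those states, and LC-2/ad is at or near 0 for most genes while ZNF729 to ZNF99 are low in all 4 lines.

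The low levels were not confined to 1 state, since the median TPM of the 37 genes was 0 in LC-2/ad in each of the 3 states. ZNF626 was at 0 TPM, with 0 estimated counts, in all 3 LC-2/ad libraries, while its TPM in attached, day 1 and day 7 cells was 18.4, 22.5 and 30.9 in NCI-H2009, 19.2, 18 and 18.6 in NCI-H2228, and 3.81, 5.32 and 3.67 in HCC4006. ZNF429 was also at 0 TPM in all 3 LC-2/ad libraries and between 2.34 and 15.3 TPM in the other 9. ZNF43 was at 0 TPM in LC-2/ad and between 1.08 and 7.13 TPM elsewhere. Just outside the rule for off, ZNF506 stood at 0.01, 0 and 0.12 TPM in LC-2/ad and at 4.03 to 18.4 TPM elsewhere.

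Within the group the silent genes of LC-2/ad were not all silent in the same way elsewhere. The stretch from ZNF729 to ZNF99 stayed under 1 TPM in all 12 libraries. ZNF208 was on in NCI-H2009 alone, at 5.59, 8.54 and 9.90 TPM in attached, day 1 and day 7 cells, against at most 0.01 TPM in the other 9 libraries. It is the only one of the 250 genes that was on in 1 line and off in each of the 3 others. With NCI-H2009 as the line that was on, 12 of 19983 protein-coding genes (0.0601%) had this pattern. The counts were 5 with LC-2/ad, 11 with NCI-H2228 and 19 with HCC4006, and a single gene is too few to compare with them. The group's genes that were on in LC-2/ad were low there too, with ZNF101 at 1.44 to 1.46 TPM, ZNF14 at 2.24 to 2.87 TPM and ZNF714 at 1.42 to 2.25 TPM.

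Over the whole family, 18 genes (7.20%) were off in LC-2/ad and on in at least 1 other line, where the share of all protein-coding genes was 1.35%. Counted the same way, 1 gene was off in NCI-H2009 (ZNF835, background 1.51%), 4 in NCI-H2228 (ZNF556, ZNF560, ZNF208 and ZNF676, background 0.991%) and 5 in HCC4006 (ZNF625, ZNF208, ZNF578, ZNF667 and ZNF835, background 0.621%). Of the 18 genes of LC-2/ad, 12 lie between ZNF101 and ZNF254 (ZNF682, ZNF90, ZNF486, ZNF737, ZNF626, ZNF66, ZNF493, ZNF429, ZNF43, ZNF208, ZNF257 and ZNF676), and ZNF556, ZNF560, ZNF625, ZNF285, ZNF578 and ZNF677 lie elsewhere. When NCI-H2009 is left out of the comparison, 11 remain, since some genes were on in that line only. Off in at least 1 line and on in at least 1 other were 20 family members (8%), against 2.64% of ZNF genes on other chromosomes, 2.30% of other chromosome 19 genes and 3.28% of all protein-coding genes.

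By the stricter rule of off in 1 line and on in each of the 3 others, 5 of the 250 genes were found, where the share of all protein-coding genes was 0.32%. All 5 were off in LC-2/ad (ZNF626, ZNF429, ZNF43, ZNF285 and ZNF677), against a background of 0.0701% for that line, and none of the 250 was off in another line alone, where the backgrounds were 0.17% for NCI-H2009, 0.0601% for NCI-H2228 and 0.02% for HCC4006. ZNF677, on the long arm, was at 0, 0 and 0.01 TPM in attached, day 1 and day 7 LC-2/ad cells, with 1 estimated count in all. It stood at 21.4, 20.3 and 31.8 TPM in NCI-H2009, at 6.52, 8.85 and 7.92 TPM in NCI-H2228, and at 10.4, 11.5 and 10.5 TPM in HCC4006. ZNF285 was at most 0.03 TPM in LC-2/ad and between 1.14 and 3.33 TPM elsewhere. ZNF677, ZNF626 and ZNF556 had the widest ranges between line means, 4.67, 4.64 and 3.79 on the log2(TPM + 1) scale. ZNF556 was high in NCI-H2009, at 23.9, 8.09 and 6.58 TPM in attached, day 1 and day 7 cells, and at most 0.15 TPM in the other lines.

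By rank across libraries, the 3 LC-2/ad libraries lay below the other 9 for 41 of the 250 genes and above them for 2, with 3.79% and 3.4% of protein-coding genes as background. The 3 NCI-H2009 libraries lay above the other 9 for 29 genes and below them for 2, with backgrounds of 5.39% and 4.26%. The counts for NCI-H2228 were 3 above and 10 below, with backgrounds of 5.53% and 5.2%, and those for HCC4006 5 above and 11 below, with backgrounds of 7.27% and 3.8%.

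Most of the protein-coding genes just before the group were on in LC-2/ad, and genes after ZNF254 were not examined. Of the 18 protein-coding genes that start within 500 kb before ZNF101, 12 reached 1 TPM in 4 libraries. In LC-2/ad 11 of the 18 were on and 2 were off, and 0 were off there and on in another line. Of all 19983 protein-coding genes, 11192 were on in LC-2/ad and 5222 were off. The share off there and on in another line was 1.35%, and 18 genes are too few to tell 0 from it. Inside the group the table lists 172 other genes, nearly all of them not protein-coding, of which 12 reached 1 TPM in 4 libraries. Of the 172, 3 were on in LC-2/ad and 160 were off there. Among those off, 4 were on in another line (AC011447.3, ZNF826P, AC010615.2 and AC074135.1). Most of the 172 were low in most libraries, and neither their off counts in the other lines nor a share over noncoding genes was taken. The 160 therefore cannot be read as particular to LC-2/ad. Copy number and chromatin were not measured, and their part in the result was not tested. In such bulk samples fewer cells expressing a gene and less RNA per cell cannot be told apart.

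The promoters of the group share sequence. RefSeq promoter windows (250 bases before to 50 bases after the start, GRCh38.p14) were found for 218 of the 250 genes, 29 of them in this group. The motif CCAATCA, on either strand, a form of the CCAAT box that NF-Y is known to bind, occurred in 29 of these 29, against 35 of 189 in the rest of the family (18.5%) and 7.28% of 27305 promoters in the table. A word of 12 letters, CTGTCACTCAGG, searched on the promoter strand only, occurred in 18 of 29, against 6 of 189 and 0.128%. It was chosen after the counts were seen, as one of a pair of most frequent words of this length in the group. The other contains CCAATCA and this one does not. CCAATCA thus lies in a most frequent word of the same 29 promoters. Its 29 of 29 is therefore a description and no test of a motif set beforehand. Promoters of genes that were off in LC-2/ad and on elsewhere are shown with 1 that was low there (ZNF91) and 1 from the long arm (ZNF677), with the motif and the word in capitals.

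ZNF626 promoter, chr19:20661522-20661821, minus strand: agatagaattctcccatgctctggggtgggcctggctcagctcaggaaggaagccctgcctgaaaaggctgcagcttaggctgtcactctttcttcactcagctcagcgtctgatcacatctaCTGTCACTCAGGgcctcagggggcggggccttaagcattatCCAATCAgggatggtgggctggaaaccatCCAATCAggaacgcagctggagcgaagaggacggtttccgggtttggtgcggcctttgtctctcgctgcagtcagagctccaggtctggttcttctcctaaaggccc

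ZNF43 promoter, chr19:21836133-21836432, minus strand: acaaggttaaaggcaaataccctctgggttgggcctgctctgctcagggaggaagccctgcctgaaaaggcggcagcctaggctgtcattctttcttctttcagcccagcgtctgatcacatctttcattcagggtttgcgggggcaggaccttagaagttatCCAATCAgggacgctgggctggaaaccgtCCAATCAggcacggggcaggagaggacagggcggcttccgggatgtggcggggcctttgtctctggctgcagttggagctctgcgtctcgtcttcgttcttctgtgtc

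ZNF429 promoter, chr19:21505352-21505651, plus strand: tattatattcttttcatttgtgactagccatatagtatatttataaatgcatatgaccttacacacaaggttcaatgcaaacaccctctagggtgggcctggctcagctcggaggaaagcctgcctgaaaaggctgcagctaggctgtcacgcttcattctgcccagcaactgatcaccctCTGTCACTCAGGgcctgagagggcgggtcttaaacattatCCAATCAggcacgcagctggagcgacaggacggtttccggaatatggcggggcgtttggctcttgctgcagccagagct

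ZNF91 promoter, chr19:23395422-23395721, minus strand: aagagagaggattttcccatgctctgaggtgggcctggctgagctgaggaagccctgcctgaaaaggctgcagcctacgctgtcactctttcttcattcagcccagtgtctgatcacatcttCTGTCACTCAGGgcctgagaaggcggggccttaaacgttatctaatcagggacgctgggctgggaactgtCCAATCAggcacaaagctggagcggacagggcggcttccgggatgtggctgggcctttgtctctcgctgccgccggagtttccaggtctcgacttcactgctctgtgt

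ZNF677 promoter, chr19:53254774-53255073, minus strand: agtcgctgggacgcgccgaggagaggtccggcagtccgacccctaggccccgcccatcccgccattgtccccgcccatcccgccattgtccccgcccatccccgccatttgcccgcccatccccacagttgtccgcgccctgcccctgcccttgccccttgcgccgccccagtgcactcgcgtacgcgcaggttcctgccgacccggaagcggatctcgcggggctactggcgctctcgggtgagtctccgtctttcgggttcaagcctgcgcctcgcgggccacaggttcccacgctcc

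The promoters from ZNF626 to ZNF91 carry the motif 2, 2, 1 and 1 times, while that of ZNF677 carries neither motif nor word. The number of CpG dinucleotides was 8, 12, 9 and 11 in these and 34 in ZNF677. Over the group the median was 10 CpG and 56.0% GC, against 22 CpG and 61.0% GC in the rest of the family and 14 CpG and 58.3% GC in all promoters. Since all 29 promoters of the group held the motif, it did not separate the group's genes that were off in LC-2/ad from the rest of the group. A motif match is a description of letters and no measure of binding.

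The series was designed to compare detached with attached cells. With state and cell line in the model, 236 of the 250 genes passed the filter on low counts. None passed an adjusted p of 0.05 in any of the 3 comparisons (edgeR, Benjamini-Hochberg over 17395 genes). The smallest adjusted p was 0.108 for day 1 against attached, 0.167 for day 7 against attached and 0.448 for day 7 against day 1. Among all genes tested, 0.149% were called higher and 0.339% lower at day 1 against attached, 0.00575% higher and 0.0977% lower at day 7 against attached, and 0.0% either way at day 7 against day 1. At an unadjusted p under 0.05, 6 family members were higher and 9 lower at day 1, 10 higher and 0 lower at day 7, and 15 higher and 1 lower at day 7 against day 1, where the shares of all genes tested were 10.6% and 9.01%, 8.47% and 7.19%, and 4.85% and 4.93%. DESeq2, over the genes to which it gave an adjusted p, called 5 of 232 family members at day 1 against attached (2.16%, background 11.4%), 2 of 239 at day 7 against attached (0.837%, background 6.87%) and 1 of 250 at day 7 against day 1 (0.4%, background 1.16%).

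**Figure D3:**
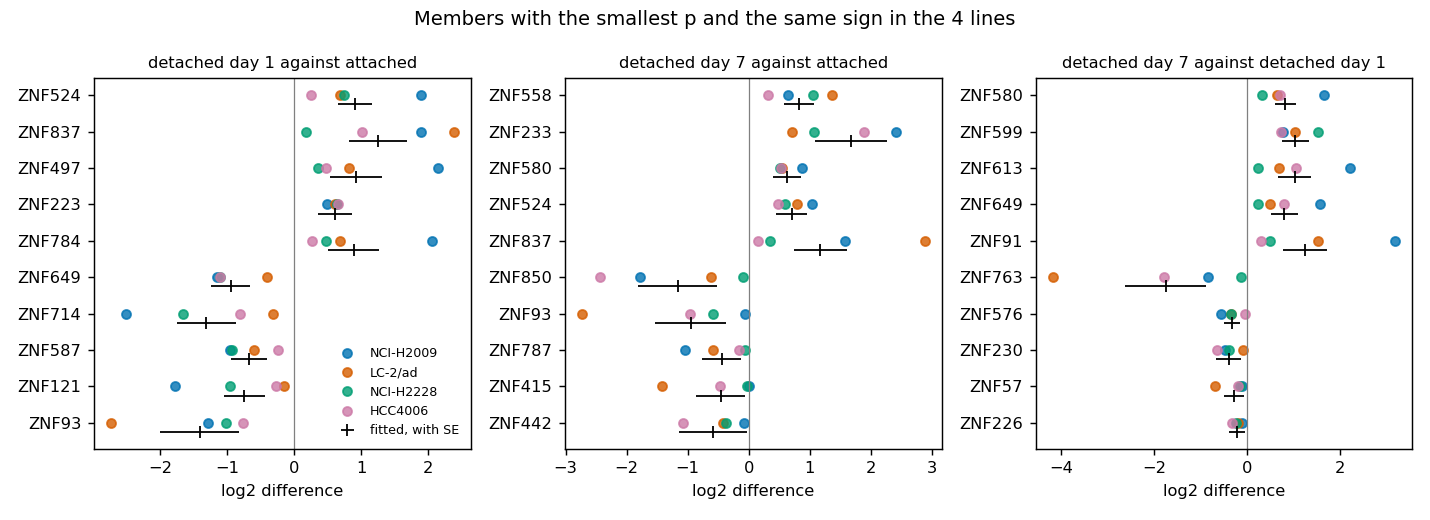
Difference between states (log2, horizontal axis) for 10 genes per comparison, the 5 in each direction with the smallest p among those of 1 sign in all lines. Coloured points are single lines (log2 CPM) and black marks the fitted log2 fold change with its standard error; none passed the adjusted threshold.

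For each comparison the genes with the smallest p and 1 sign in all lines are described, none of which passed. Fold changes are on the count scale (log2 CPM), and the sign of a TPM difference can differ from theirs. ZNF524 stood at 34.2, 35, 59.2 and 28.2 TPM at day 1 in LC-2/ad, NCI-H2009, HCC4006 and NCI-H2228, against 22, 12, 51.9 and 19 TPM in the same lines attached. Its mean was 39.2 ± 13.7 TPM at day 1 and 26.2 ± 17.6 TPM attached (SD, n = 4 lines each), and its log2 fold change 0.90 ± 0.25 (SE; edgeR adjusted p = 0.108). The value was above its attached one in all 4 lines, most in NCI-H2009, while the 2 groups overlapped. ZNF649 averaged 3.17 ± 2.40 TPM at day 1 and 6.41 ± 4.24 TPM attached (SD, n = 4 each), a log2 fold change of -0.95 ± 0.29 (edgeR adjusted p = 0.130). ZNF837, ZNF497, ZNF223 and ZNF784 also had positive differences in each line at day 1, with log2 fold changes between 0.60 and 1.26, though ZNF223 stood at 4.68 TPM at day 1 and 5.40 TPM attached in NCI-H2009. ZNF714, ZNF587, ZNF121 and ZNF93 had negative ones, with log2 fold changes between -0.68 and -1.41.

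At day 7 ZNF558 stood at 10.3, 13.7, 7.58 and 22.9 TPM in LC-2/ad, NCI-H2009, HCC4006 and NCI-H2228, against 4.03, 6.75, 6.80 and 10.7 TPM attached. Its product regulates mitochondrial homeostasis through SPATA18 in human neural progenitors. The log2 fold change was 0.82 ± 0.24 (edgeR adjusted p = 0.167), and the 2 groups overlapped. ZNF233 averaged 2.41 ± 0.783 TPM at day 7 and 0.703 ± 0.210 TPM attached (SD, n = 4 each), a log2 fold change of 1.68 ± 0.59 (edgeR adjusted p = 0.224), and its groups did not overlap. ZNF580, ZNF524 and ZNF837 had log2 fold changes of 0.63, 0.70 and 1.17 at day 7, each positive in the 4 lines. In the other direction, ZNF850, ZNF93, ZNF787, ZNF415 and ZNF442 had negative differences in each line, with no unadjusted p below 0.103, and the mean TPM of ZNF442 was 0.934 at day 7 and 0.858 attached.

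Between the detached days, ZNF580 stood at 29, 49.1, 116 and 29 TPM at day 7 in LC-2/ad, NCI-H2009, HCC4006 and NCI-H2228, against 16.7, 10.7, 71.6 and 21.9 TPM at day 1. Its log2 fold change was 0.83 ± 0.23 (edgeR adjusted p = 0.448). ZNF599, ZNF613, ZNF649 and ZNF91 followed with 1.04, 1.03, 0.80 and 1.25, positive in the 4 lines. ZNF763, ZNF576, ZNF230, ZNF57 and ZNF226 were negative in the 4 lines, and ZNF763 shares much of its sequence with other genes. The mean TPM of ZNF57 ran the other way, 7.05 at day 7 and 6.69 at day 1.

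Over the 236 genes the median log2 fold change was -0.13 at day 1 and 0.17 at day 7, each against attached, and 0.35 at day 7 against day 1, beside 0.01, 0.03 and 0.02 over all genes tested. The ZNF genes on other chromosomes had -0.22, 0.16 and 0.38, and the other genes of chromosome 19 0.20, -0.01 and -0.21. Of the 236, 18 were higher and 27 lower in all 4 lines at day 1 (7.63% and 11.4%, background 17.1% and 16.5%), 40 higher and 9 lower at day 7 (16.9% and 3.81%, background 14.6% and 13.8%), and 36 higher and 6 lower at day 7 against day 1 (15.3% and 2.54%, background 9.61% and 8.69%). The comparisons share libraries, so they do not stand apart from one another.

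**Figure D4:**
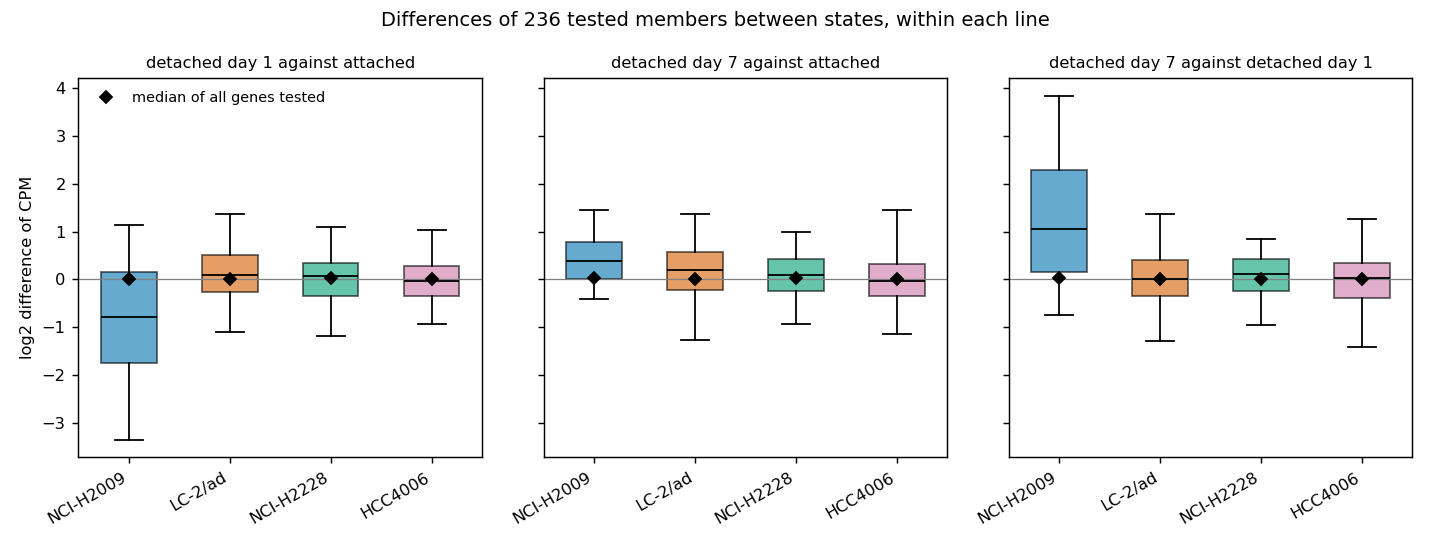
Difference of log2 CPM for the 236 tested genes in each line, for the 3 comparisons; boxes show the median and quartiles, whiskers the 5th to 95th percentile, and diamonds the median of all genes tested. The NCI-H2009 boxes stand apart at day 1, below 0, and at day 7 against day 1, above 0, while the other lines lie near 0.

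These medians rested largely on NCI-H2009. At day 1 against attached the median change was -0.79 in NCI-H2009, -0.03 in HCC4006, 0.07 in NCI-H2228 and 0.08 in LC-2/ad. At day 7 against attached it was 0.38, -0.02, 0.10 and 0.19 in the same order of lines, and at day 7 against day 1 it was 1.06, 0.03, 0.11 and 0.00. In NCI-H2009, 95 of 236 genes were lower by 2-fold or more at day 1 (40.3%, background 20.3%), and 123 were higher by 2-fold or more at day 7 against day 1 (52.1%, background 22.4%). The day 1 counts were 12 in HCC4006 (background 6.85%), 14 in LC-2/ad (7.75%) and 18 in NCI-H2228 (10.3%), and those of day 7 against day 1 were 19 in HCC4006 (7.63%), 20 in LC-2/ad (9.54%) and 8 in NCI-H2228 (7.47%). Of the 29 tested genes from ZNF101 to ZNF254, 19 were lower at day 1 and 23 higher at day 7 against day 1 in NCI-H2009, where the group's median changes were -1.51 and 2.41. Without NCI-H2009 the family's median day 1 change was 0.03, and the median day 7 change against day 1 was 0.05. The ZNF genes on other chromosomes had a median day 1 change of -0.57 in NCI-H2009, and one of 0.78 at day 7 against day 1. The course in that line was thus not particular to chromosome 19.

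The number of family members at 1 TPM or more followed the same course in NCI-H2009, with 223 in attached cells, 175 at day 1 and 232 at day 7. It was 162, 176 and 171 in LC-2/ad, 200, 204 and 206 in NCI-H2228, and 187, 187 and 181 in HCC4006. ZNF genes on other chromosomes at 1 TPM or more numbered 206, 179 and 221 in attached, day 1 and day 7 NCI-H2009 cells. The family's summed level was 1728, 1148 and 2565 TPM in attached, day 1 and day 7 NCI-H2009 cells, 1108, 1176 and 1288 TPM in LC-2/ad, 1446, 1367 and 1383 TPM in HCC4006, and 1394, 1275 and 1510 TPM in NCI-H2228. It was lower at day 1 than in attached cells in NCI-H2009, HCC4006 and NCI-H2228, and higher in LC-2/ad. The NCI-H2009 day 1 library also had the highest share of its TPM in its 100 most abundant genes of the 3 states of that line, 32.6% against 27.9% attached and 24.5% at day 7. In NCI-H2228 the share was likewise highest at day 1, 31.7% against 28.3% attached and 30.4% at day 7. LC-2/ad and HCC4006 had their highest share at day 7. The part of this share in the result was not tested.

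By position, the day 1 change in NCI-H2009 was uneven. The median was -1.40 in the group from ZNF653 to ZNF791, -1.51 from ZNF101 to ZNF254, -1.37 from ZNF565 to ZNF573 and -1.06 from ZNF175 to ZNF331. It was -0.60 from ZNF575 to ZNF296, -0.05 from ZNF557 to ZNF846 and 0.06 from ZNF628 to ZNF446. ZNF714, in the ZNF101 to ZNF254 group, was at 2.44 TPM in NCI-H2009 at day 1 against 16 TPM attached. ZNF382, in the ZNF565 to ZNF573 group, was at 0.18 TPM in the same day 1 library against 5.19 TPM attached. ZNF524 and ZNF837, in the group nearest the long arm's end, were higher at day 1 in the same library, at 35 and 13.2 TPM against 12 and 4.51 TPM attached.

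The co-repressor machinery with which KRAB zinc finger proteins work was listed as 25 genes, all of which were tested, and none passed the adjusted threshold in any comparison. At an unadjusted p under 0.05, 0 were higher and 8 lower at day 1 (background 10.6% and 9.01%), 0 higher and 5 lower at day 7 (8.47% and 7.19%), and 4 higher and 1 lower at day 7 against day 1 (4.85% and 4.93%). TRIM28, the scaffold that KRAB domains recruit, averaged 132 ± 47.7 TPM at day 1 and 219 ± 70.8 TPM attached (SD, n = 4 lines each), a log2 fold change of -0.61 ± 0.14 (edgeR adjusted p = 0.0755), and was lower in all 4 lines. SETDB1 had a log2 fold change of 0.11 (edgeR adjusted p = 0.794). The H3K9 methyltransferase gene SUV39H1, the heterochromatin protein gene CBX1 and the DNA methyltransferase gene DNMT3B had log2 fold changes of -0.91, -0.68 and -1.32 at day 1, each negative in the 4 lines, with edgeR adjusted p between 0.0879 and 0.102. At day 7 TRIM28 had -0.48 and CBX1 -0.79.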

How the data were processed

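RNA sequencing libraries of 4 lung adenocarcinoma lines in 3 states were analysed from a deposited table of TPM and estimated counts per gene. Per the labels' protocols, the SMART-Seq v4 PLUS kit made the libraries out of total RNA. The submitters' processing notes name the build GRCh38; for the aligner, quantifier, annotation release and strand, "not given in the sources used here" applies. The TPM values that the authors deposited are scaled by gene length and depth. Estimated counts were deposited without normalization, and depth limits the precision of low genes.

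Groups were taken from the labels, 1 library per line and state. The lines pair the libraries by design: deviations from the state means correlated at 0.715 to 0.818 within a line and at -0.38 to -0.0941 between lines. Nothing says that the libraries of a line came from separate cultures, and p-values measure only the spread between lines. Rounded counts went into edgeR 4.0.16 (R 4.3.3), with TMM factors, filterByExpr by state and a robust quasi-likelihood model of state and cell line over 12 libraries (6 residual degrees of freedom, coefficient of variation 38.7%). Adjusted p is Benjamini-Hochberg over 17395 genes, with a threshold of 0.05. The standard error is derived from the fold change and its F statistic. Within a line, log2 CPM (prior count 2) was subtracted between states. Alternatives were DESeq2 1.42.0, limma 3.58.1 on log2(TPM + 1) and log2(TPM + 0.1), other filters and scalings, and leaving out each line. Sequences are from RefSeq (GRCh38.p14) and GENCODE release 29.

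The genes, lists and rules were chosen with earlier results of these data known. Named are the 5 genes per direction with the smallest p among those of 1 sign in all lines, the 10 highest by mean TPM, genes off or on in 1 line, the ends of each positional group, the 3 widest line ranges, a co-repressor list and 12 genes of known role; others were chosen after their values were seen.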

Additional observations from a re-analysis of the deposited data

Results flagged for a closer look

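In 14 of 153 groups of 4 libraries or medians, 1 value stood so far from the other 3 that its gap exceeded Dixon's 95% limit. Chance flags about 1 group in 20 where groups are independent and not chosen by their values. Here ZNF208 and ZNF556 had been named for a difference between lines, and many groups share a gene or a library. The number flagged therefore cannot be set against that share. The median change of the family by line was -0.79 in NCI-H2009 at day 1 against attached, with the other lines between -0.03 and 0.08, and 1.06 in NCI-H2009 at day 7 against day 1, with the others between 0.00 and 0.11.

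In NCI-H2009, ZNF208 was at 5.59, 8.54 and 9.90 TPM in attached, day 1 and day 7 cells, against 0 to 0.01 TPM in the other lines. ZNF556 was at 23.9, 8.09 and 6.58 TPM there, against at most 0.15 TPM. ZNF850 was at 3.66 TPM in attached NCI-H2009 cells, against 0.29 to 0.73 TPM, and ZNF233 at 0.16 TPM at day 1, against 1.86 to 2.18 TPM in the other lines.

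ZNF580 was at 84.4 TPM in attached HCC4006 cells, against 19.1 to 22.1 TPM in the other lines. ZNF784 was at 1.41 TPM at day 7 in NCI-H2228, against 2.76 to 3.02 TPM. In LC-2/ad, ZNF146 was at 65.5 TPM attached, against 95.1 to 95.9 TPM, and ZNF304 at 6.18 TPM at day 1, against 3.32 to 3.81 TPM.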

How the results depend on the processing

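DESeq2 called 5 family members at day 1 against attached (2.16%, 11.4% of all genes), 2 at day 7 against attached (0.837%, 6.87% of all genes) and 1 at day 7 against day 1 (0.4%, 1.16% of all genes), where edgeR called 0. Of 417 comparisons of a named change with an alternative, 410 kept direction and side of the threshold, 7 passed under DESeq2 only (ZNF524, ZNF837, ZNF649, ZNF714 and ZNF93 at day 1, ZNF558 at day 7 and ZNF599 at day 7 against day 1), and 0 turned direction. The named changes had been chosen for 1 sign in all lines, and none had passed the threshold. None could therefore lose a call, and a turn of direction was unlikely from the start, so these counts do not measure stability. Without the replicate block for cell line, 0 were called and the medians were -0.13, 0.17 and 0.37. Leaving out lines or the NCI-H2009 day 1 or day 7 library gave medians of -0.20 to 0.06 at day 1, -0.0080 to 0.24 at day 7 and 0.05 to 0.44 at day 7 against day 1. The lowest day 7 median came without the NCI-H2009 day 7 library, and the day 1 median turned positive without NCI-H2009 or its day 1 library. Genes at 1 TPM in 4 libraries numbered 206 to 218 with a line left out, and 104 reached 1 TPM in 12 libraries. Genes off in exactly 1 line numbered 9 with off at 0.3 TPM and 3 with on at 2 TPM, against 5. A gap of 2 Mb gave 9 positional groups. Without NCI-H2009, 11 genes were off in LC-2/ad and on elsewhere. These counts follow from the limits themselves. Single libraries per line and state leave line differences without a test, and low counts limit values near 0.1 TPM.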
